A study of Mus musculus with 26 samples.

Results

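Stroma sorted from the mammary glands of 12-month-old mice null for Snai2 was compared with stroma of wild-type mice of the same age, over 4 of the 26 libraries of the series. The wild-type libraries came from cell pools A1 and A2. Those of the null mice came from pools A5 and A6. All mice were of strain B6.129S1, and the null genotype was labelled Snai2-LacZ/LacZ. Each pool held dissociated cells of 3 mice, sorted on EpCAM, an adhesion protein of epithelial cells, and CD49f, the integrin alpha 6 chain. Each genotype thus had 2 pools, genotype cannot be told apart from pool or batch, and p-values measure the spread between pools and not between mice. The labels do not limit the LacZ alleles to the stroma, so the other cells of the gland carry them too.

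The null libraries were chosen by measured Col1a1 and Krt14 as well as by labels. In pool A5 the library labelled Stromal had 23.9 CPM of Col1a1 (the alpha 1 chain of type I collagen, a fibroblast product) and 1025 CPM of Krt14 (keratin 14 of basal epithelium), where CPM is the gene's count scaled to a common library size. The A5 library labelled Luminal-Basal had the reverse, 1218 CPM of Col1a1 and 34.8 CPM of Krt14. The labels of these libraries were therefore treated as exchanged, and "null A5" below is the library labelled Luminal-Basal. Col3a1, which did not enter that choice, was 1583 CPM in null A5 and 21.0 CPM in the library labelled Stromal. Across genes, the mean r of null A5 was 0.947 with other stromal libraries and 0.868 with luminal-basal ones, while the library labelled Stromal gave 0.802 and 0.929. These r values describe log2 CPM over genes, which are not replicates. Log2 fold changes with null A6 alone, whose label was not exchanged, are given for many of the named genes and for the main lists.

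**Figure D1:**
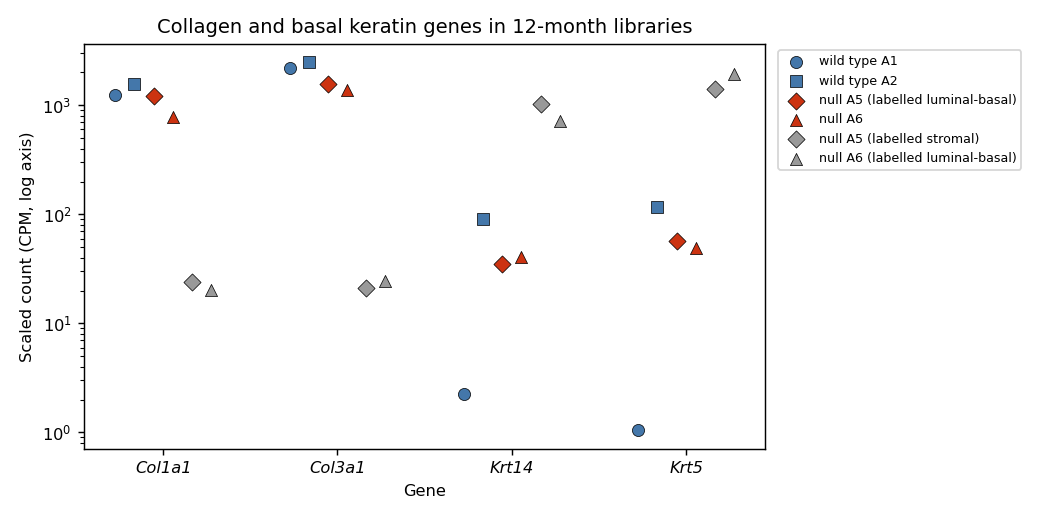
Scaled counts (CPM, log axis) of 2 collagen genes and 2 basal keratin genes in 6 libraries of 12-month pools, 1 point a library. The A5 library labelled Luminal-Basal (red diamond) lies with the stromal libraries for Col1a1 and Col3a1, and the A5 library labelled Stromal (grey diamond) lies with the A6 luminal-basal library.

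Snai2 encodes Slug, a zinc-finger repressor of the Snail family that binds E-box letters in gene promoters and lowers E-cadherin and other epithelial genes during epithelial-mesenchymal transition. In the mammary gland it is known from basal epithelial cells, where it restrains luminal differentiation, and it is also made by fibroblasts. Mammary stroma holds fibroblasts, which make most of the collagen and other matrix, together with vessels, immune cells and fat. EpCAM-low gates take in fibroblasts, and they can also take in endothelial and other cells.

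The 4 libraries taken as stroma carried fibroblast markers and few counts of leukocytes or mature fat cells. Null A5 is not labelled Stromal and was chosen by Col1a1 and Krt14, so its fibroblast genes are a description and no check of a label. Fibroblast genes were abundant in all 4 libraries: Dcn (decorin) ran from 5531 to 8599 CPM, Lum (lumican) from 1055 to 1379 CPM and Pdgfra (a growth factor receptor of fibroblasts) from 522 to 754 CPM. Ptprc, the CD45 gene of all leukocytes, was at 0.894 to 3.43 CPM. Adipoq of mature fat cells was at 0 to 2.34 CPM. Library totals were 6409017 and 5813614 counts for wild-type A1 and A2, and 8862854 and 4808696 for null A5 and A6. Mitochondrial ribosomal RNA took 18.4% and 27.8% of the counts in wild type and 28.0% and 24.7% in null stroma.

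Both null stromal libraries had almost none of the targeted transcript. Snai2 (ENSMUSG00000022676, protein-coding, GRCm38 chromosome 16 from 14705852 to 14709385, plus strand) had 117 and 127 counts in wild-type A1 and A2, 0 in null A5 and 1 in null A6. Those are 17.4, 22.9, 0 and 0.202 CPM, with no overlap between genotypes. Scaled for library size, wild type had 273 times the null count, with an exact binomial interval at a level of 0.95 from 48.6 to 10845. Against null A6 alone the ratio was 98.6 (17.5 to 3908). Against null A5, with 0 counts, the exact interval had a lower limit of 47.1. With null A5 set to a floor of 3 counts, Snai2 was 58.3-fold higher in wild type. Intervals and floors cover counting error only. The fitted log2 fold change was -7.71 ± 1.48 (SE), with an adjusted p of 0.168 (edgeR, quasi-likelihood test, adjusted by Benjamini and Hochberg), and so the deleted gene itself did not pass. The 27 tested genes within 2 Mb of Snai2 had log2 fold changes from -0.85 to 0.90, and the smallest unadjusted p among them was 0.0821.

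Null A6 stood apart from the other null libraries in a few genes. Over the whole series, 6 genes separated the 13 other null libraries from the 12 wild-type ones without overlap, and null A6 stroma lay on the wild-type side for 6 of these 6. Rpl34-ps1, a processed pseudogene of a ribosomal protein, was at 6.98 to 30.7 CPM in the other null libraries, 0 to 1.16 CPM in wild type, 27.2 CPM in null A5 stroma and 0.404 CPM in null A6 stroma. Luminal and luminal-basal libraries of pool A6 had 27.9 and 23.4 CPM of it. Rps2-ps10, another such pseudogene, was at 16.5 CPM in null A5 and 2.83 CPM in null A6 stroma, against 3.28 and 4.68 CPM in wild type. Reads of pseudogenes and of their parent genes are hard to tell apart, so these counts are uncertain. Results are therefore given for each null library.

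No gene passed the test between null and wild-type stroma, 0 of 15917 or 0%, and the smallest adjusted p was 0.0732. At an unadjusted p under 0.05, 658 genes were higher in null stroma (4.13%) and 231 lower (1.45%). By overlap alone, 20% of the genes tested were higher in both null libraries than in both wild-type ones, and 23.8% were lower. These shares are the background for each count without overlap given below for a list. Other models of the same counts made calls, and their numbers differed. DESeq2 called 72 genes higher and 3 lower, a fit to the 4 libraries alone 70 and 10, a fit to the 8 stromal libraries 25 and 7, and a model that took the pool as replicate block 8 and 1. Btnl9, Reep6, Slc7a2, Zfp664 and Snai2 were the 5 genes called in all of these 4 fits, out of 124 called in at least 1. With null A6 as the only null library, 0 genes passed and 798 had an unadjusted p under 0.05. Leaving out wild-type A2 gave 34 genes higher, and leaving out null A6 gave 1, each with a group of 1 library that is assumed to vary like the others.

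**Figure D2:**
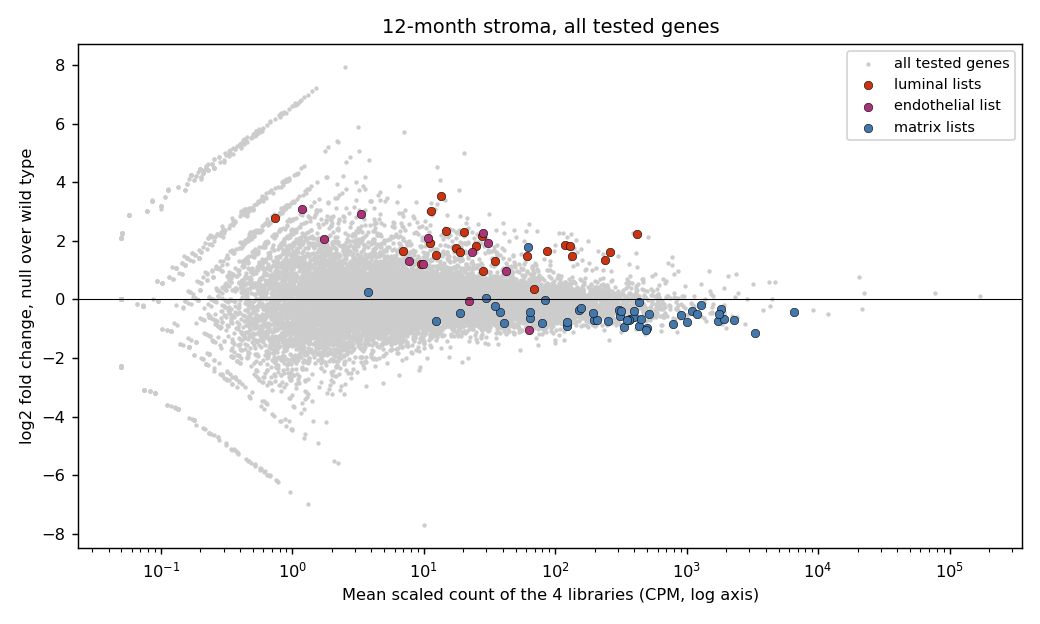
Each grey point is 1 of the 15917 tested genes, by its mean scaled count over the 4 libraries (CPM, log axis) and its fitted log2 fold change of null over wild-type stroma. Members of the luminal lists (red) lie above 0, most of the matrix lists (blue) lie a little below 0 at high counts, and lines of points at the left are genes with few counts.

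The genes of smallest p that were higher in null stroma had their highest levels, among the 4 fractions of the null pools (luminal, basal gate, luminal-basal and stroma), outside the stroma. Of the 12 named by the fixed rule (at least 10 CPM in the higher group, no overlap, smallest p), 7 were highest in the luminal libraries of the null pools, 5 in the null library pair labelled Basal and 0 in luminal-basal cells or stroma. Among these 7, Cd14 was a near tie, with means of 56.6 CPM in luminal libraries and 55.8 CPM in stroma. Those null basal-gate libraries were themselves unlike basal epithelium, with 10.5 and 27.9 CPM of Krt14 and 594 and 595 CPM of the endothelial gene Pecam1. Among the 640 genes higher without overlap at an unadjusted p under 0.05, 51.9% were highest in luminal cells, 23.1% in the basal gate, 16.7% in luminal-basal cells and 8.28% in stroma. For all tested genes the shares were 25.6%, 28.4%, 28.1% and 17.9%. The 226 genes lower by the same criteria were highest in the basal gate in 37.2%, in luminal-basal cells in 35.4%, in stroma in 16.8% and in luminal cells in 10.6%.

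Btnl9 (a butyrophilin-like membrane protein, chromosome 11 from 49165585 to 49187159) was at 0.745 and 0.9002 CPM in wild-type A1 and A2 and at 12.97 and 11.3 CPM in null A5 and A6. Its log2 fold change was 3.86 ± 0.65 (SE), adjusted p = 0.0732 with edgeR, and 3.76 with null A6 alone. The null basal gate had 415 and 402 CPM of it. Reep6, an endoplasmic reticulum shaping protein, went from 1.34 and 3.78 CPM to 27.9 and 25.4 CPM, a log2 fold change of 3.39 ± 0.60 (SE) and of 3.34 with null A6 alone. The null luminal libraries had 106 and 96.2 CPM of Reep6. For both genes the null libraries were close to each other and far above wild type.

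Slc7a2 (a transporter of cationic amino acids) was at 41.4 and 71.5 CPM in wild type and at 256 and 204 CPM in null stroma, 2.03 ± 0.39 (SE) on the log2 scale and 1.86 with null A6 alone. Zfp664, a zinc-finger gene, was at 50.7 and 88.0 against 209 and 197 CPM. Tox2, of the TOX family of DNA-binding proteins, was at 3.28 and 3.96 against 26.8 and 26.4 CPM. Each of these 3 was highest in luminal cells of the null pools, with 955, 664 and 131 CPM on average. With null A6 alone Zfp664 and Tox2 had log2 fold changes of 1.52 and 2.87. Stc1, the hormone stanniocalcin 1, was at 5.96 and 5.94 against 29.9 and 32.3 CPM, with its highest null level in the basal gate.

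Rasgrp3 and Prkch, both signalling proteins of the diacylglycerol pathway, were higher in null stroma and again highest in the basal gate. Rasgrp3 was at 1.04 and 3.06 CPM in wild type and 14.6 and 14.7 CPM in null stroma. Prkch was at 3.72 and 2.52 against 12.5 and 17.2 CPM. Sele, the E-selectin of activated endothelium, was at 2.38 and 8.46 CPM in wild type, 51.0 CPM in null A5 and 22.8 CPM in null A6. With null A6 alone the log2 fold changes of these 3 genes were 2.87, 2.45 and 2.10.

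**Figure D3:**
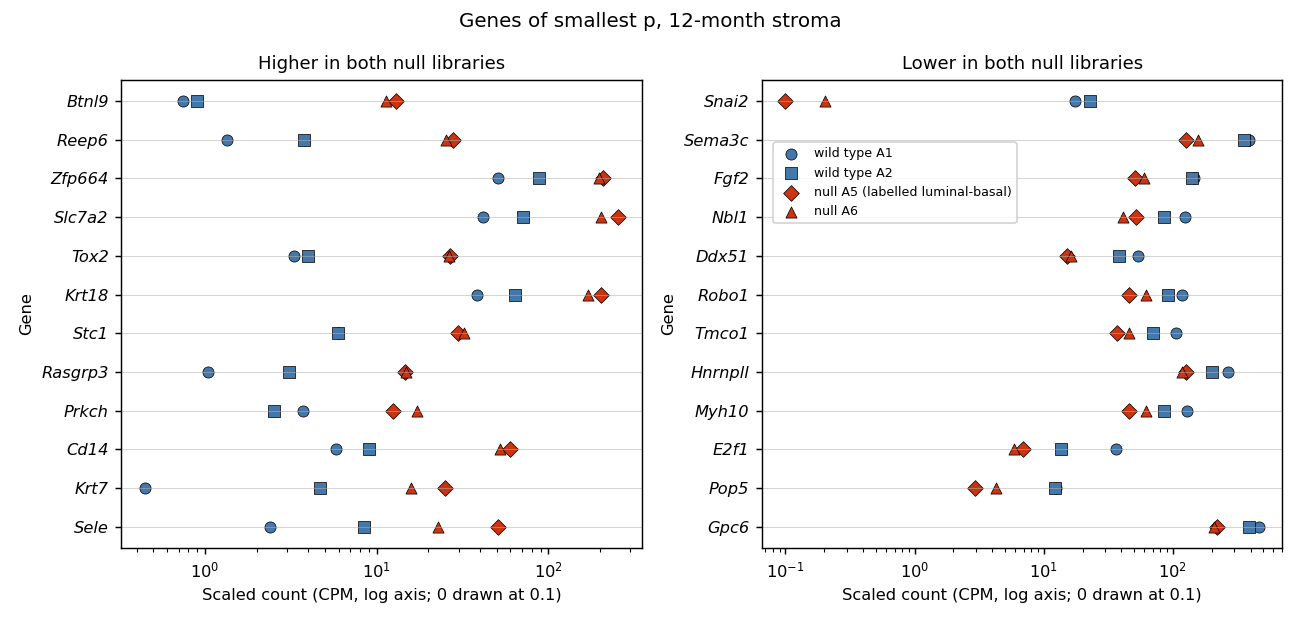
Scaled counts (CPM, log axis, 0 drawn at 0.1) of the 12 genes of smallest p in each direction, 1 point a library, blue for wild type and red for null. Genotypes do not overlap since the rule took only such genes, and Btnl9, at the top left, goes from 0.745 and 0.9002 CPM in wild type to 12.97 and 11.3 CPM in null stroma.

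Genes of luminal epithelium had higher values in null stroma, though none passed the test. All 14 members of the luminal list (keratins, claudins, adhesion proteins and luminal transcription factors) were higher in both null libraries than in both wild-type ones, beside 20% of all genes tested, and 12 had an unadjusted p under 0.05. Their median log2 fold change was 1.64, beside -0.04 for all tested genes, and it was 1.30 with null A6 alone. Summed over the list, the level was 338 and 777 CPM in wild-type A1 and A2 and 1889 and 1447 CPM in null A5 and A6. As a share of the sum in the luminal library of the same pool this was 6.3%, 15.1%, 36.5% and 35.2%. In bulk libraries, more cells of a type and more RNA per cell cannot be told apart.

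Epcam (chromosome 17 from 87635979 to 87651129), whose protein was used for sorting, was at 67.5 and 189 CPM in wild type and at 409 and 387 CPM in null stroma. Its log2 fold change was 1.63 ± 0.40 (SE) with an adjusted p of 0.242 from edgeR, and 1.61 with null A6 alone. Krt18 (chromosome 15 from 102028180 to 102032027), a keratin of luminal cells, was at 38.6 and 64.3 against 202 and 170 CPM, 1.86 ± 0.40 (SE), and 1.74 with null A6 alone. Its partner Krt8 was at 38.4 and 44.5 against 153 and 109 CPM. All 4 wild-type and null values of each keratin stood apart by genotype, and wild-type A2 was above A1 in these 3 genes.

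Krt7, another simple keratin, was at 0.447 and 4.68 CPM in wild type and 24.9 and 15.7 CPM in null stroma. Krt19 was at 39.3 and 73.8 against 248 and 154 CPM. Cd24a, a surface glycoprotein high on luminal cells, was at 58.4 and 213 against 362 and 332 CPM. Cdh1, the E-cadherin gene and a known target of Snail-family repressors, was at 39.0 and 103 against 247 and 151 CPM, a log2 fold change of 1.49 and of 1.10 with null A6 alone. Cldn4, a tight-junction claudin named here for its promoter, was at 12.96, 27.2, 71.2 and 29.1 CPM in wild-type A1 and A2 and null A5 and A6, so that null A6 barely cleared wild-type A2.

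Hormone-sensing luminal cells carry the estrogen, progesterone and prolactin receptors and signal to their neighbours. All 10 genes of their list were higher in both null libraries, 7 at an unadjusted p under 0.05, with a median log2 fold change of 2.19 and of 2.08 with null A6 alone. The sum was 166 and 396 CPM in wild type and 1236 and 841 CPM in null stroma, or 6.2%, 9.97%, 25.7% and 20.3% of the sum in luminal cells of the same pools. Prlr, the prolactin receptor, was at 71.4 and 221 against 866 and 505 CPM. Pgr, the progesterone receptor, was at 7.15 and 57.4 against 102 and 77.1 CPM, and Areg, a growth factor that estrogen induces, at 3.58 and 16.9 against 36.6 and 54.3 CPM. Esr1, which fibroblasts also express, was at 67.5 and 54.2 against 75.6 and 79.9 CPM, a much smaller difference. Foxa1, chosen after its values were seen, was at 2.53 and 7.20 against 24.6 and 24.4 CPM.

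Milk and secretory genes were less even. Of 17 tested, 8 were higher and 1 lower without overlap, beside 20% and 23.8% of all genes. At an unadjusted p under 0.05, 2 were higher, and the median was 1.25 (1.007 with null A6 alone). Lcn2, a secreted iron-siderophore carrier, was at 68.4 and 202 against 863 and 438 CPM. Csn3, the kappa-casein gene, was at 168 and 150 against 565 and 317 CPM. Csn2, the beta-casein gene, was at 794 and 35.3 CPM in wild type and 154 and 2087 CPM in null stroma, and Csn1s1 at 375 and 37.4 against 314 and 913 CPM. Csn2 and Csn1s1 were thus uneven between pools of 1 genotype, whereas Csn3 did not overlap between genotypes, and the log2 fold change of Csn2 went from 1.43 to -1.43 without null A6. In luminal cells of the same pools Csn2 was at 19672 and 166 CPM in wild type and 219 and 1916 CPM in null mice, again uneven within each genotype.

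Basal epithelial genes did not follow the luminal ones. Of 17 members tested, 1 was higher and 1 lower without overlap, none had an unadjusted p under 0.05, and the median was -0.30 (-0.22 with null A6 alone). Krt14, which served to choose null A5 and is a description, was at 2.23 and 90.2 CPM in wild-type A1 and A2 and at 34.8 and 40.6 CPM in the null libraries. Krt5 was at 1.04, 116, 57.1 and 49.0 CPM in the same order. Both keratins were low in wild-type A1 only, and the list summed to 564, 1451, 966 and 839 CPM. Without wild-type A2 the log2 fold change of Krt14 was 4.06 in place of -0.29.

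Slug binds the E-box letters CAGGTG, which read as CACCTG on the opposite strand of the promoter. Promoters of luminal genes are shown for these letters, as the members of the list had 1 direction in 12-month stroma. In 3-month stroma all 14 had negative log2 fold changes, and in 12-month luminal cells their median was -0.36. Whether the letters bear on any of these directions was not tested. Sequences are from RefSeq on GRCm38.p6 and run 300 bases, from 250 before the start site to 50 from it, 5′ to 3′ on the gene's strand. Capitals mark those letters in either form, and no marked stretch overlaps another. Epcam lies at chr17:87635729-87636028 (plus strand), Krt18 at chr15:102027966-102028265 (plus strand) and Cldn4 at chr5:134946885-134947184 (minus strand).
Epcam: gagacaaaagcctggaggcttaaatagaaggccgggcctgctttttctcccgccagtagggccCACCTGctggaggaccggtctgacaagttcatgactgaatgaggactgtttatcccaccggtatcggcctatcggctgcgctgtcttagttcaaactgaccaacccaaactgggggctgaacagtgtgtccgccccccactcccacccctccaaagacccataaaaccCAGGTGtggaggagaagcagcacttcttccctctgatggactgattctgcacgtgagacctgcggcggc
Krt18: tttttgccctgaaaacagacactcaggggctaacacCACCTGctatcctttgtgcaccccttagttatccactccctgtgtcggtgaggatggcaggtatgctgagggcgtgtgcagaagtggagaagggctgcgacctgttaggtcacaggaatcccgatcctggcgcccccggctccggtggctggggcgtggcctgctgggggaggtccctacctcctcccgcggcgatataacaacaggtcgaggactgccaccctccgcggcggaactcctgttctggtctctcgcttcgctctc
Cldn4: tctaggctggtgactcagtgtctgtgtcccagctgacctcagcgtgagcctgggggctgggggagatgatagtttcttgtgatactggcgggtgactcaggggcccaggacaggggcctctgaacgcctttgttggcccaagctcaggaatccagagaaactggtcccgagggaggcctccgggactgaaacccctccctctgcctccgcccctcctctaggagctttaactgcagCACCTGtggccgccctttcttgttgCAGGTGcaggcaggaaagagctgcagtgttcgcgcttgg
Either form was present in 10 of the 12 promoters that the table holds for the luminal list (83.3%), which cover 10 of its 14 genes. For the hormone-sensing list it was in 6 of 14 promoters (42.9%), which cover 9 of its 10 genes. Only 7 of the 12 named higher genes had promoters held, 12 promoters in all, and 4 of these had the letters (33.3%). Of the 12 named lower genes 9 had a promoter held, and 4 of these 9 promoters had the letters (44.4%). Among all 32851 promoters of this length it was present in 20.2%, and among those of tested genes in 18.5%. The planned shares among called genes could not be given, since none was called. A match describes letters and shows no binding, and promoters of 1 gene can overlap.

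Endothelial genes also had higher values. Of 12 tested, 10 were higher without overlap and 7 of these had an unadjusted p under 0.05, while 1 was lower. The median log2 fold change was 1.77 with both null libraries and 0.97 with null A6 alone, and the sum was 173 and 199 CPM in wild type against 369 and 234 CPM in null stroma. Pecam1, the CD31 adhesion molecule, was at 25.6 and 31.9 against 65.7 and 45.8 CPM, 0.96 ± 0.62 (SE) on the log2 scale. Cdh5, the VE-cadherin gene, was at 2.83 and 16.6 against 63.0 and 29.9 CPM, and Flt1, a VEGF receptor, at 7.45 and 18.2 against 57.5 and 39.4 CPM. Tek, the angiopoietin receptor, was the exception at 97.6 and 71.7 against 39.0 and 43.6 CPM. Null A5 was above null A6 in Pecam1, Cdh5 and Flt1.

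Leukocyte marker genes were low in these 4 libraries, while antigen presentation genes were not. Of 15 macrophage genes 10 were tested, and 8 were higher without overlap, 4 of them at an unadjusted p under 0.05, with a median of 2.65 (2.57 with null A6 alone). Their sum over the list was 68.2 and 62.8 against 139 and 112 CPM, and defining members such as Adgre1 (F4/80) were at 0 to 0.455 CPM. Luminal libraries of pools A1, A2, A5 and A6 had sums of 89.2, 65.9, 119 and 75.4 CPM, so this sum is not particular to macrophages. Cd14, a lipopolysaccharide co-receptor that luminal cells of these pools also carried at 68.5 and 44.8 CPM, was at 5.81 and 9.002 against 59.5 and 52.1 CPM. Cd68 was at 6.41 and 9.002 against 13.9 and 7.67 CPM, which overlap. Antigen presentation genes were higher without overlap in 9 of 15, 6 at an unadjusted p under 0.05, with a median of 0.99 (0.73 with null A6 alone). The class I genes B2m, H2-K1 and H2-D1 were the abundant members and overlapped between genotypes, B2m being at 1025 and 799 against 800 and 1188 CPM. Among class II genes, picked out after their values were seen, Cd74 was at 3.13 and 10.8 against 27.5 and 38.8 CPM and H2-Ab1 at 1.94 and 2.34 against 5.35 and 15.1 CPM.

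Plasma cell genes Igkc and Ighm were higher in both null libraries, 3 of 6 tested members of the B-cell and plasma-cell list having no overlap and an unadjusted p under 0.05. Igkc, the kappa light chain constant region, was at 4.17 and 0.9002 against 23.1 and 46.6 CPM. Of the 14 T-cell and NK-cell genes 5 were tested and 1 was higher without overlap, Cd3e, at 3.72 and 2.16 against 16.1 and 13.1 CPM, while Cd3d was at 0 in each library. Skeletal muscle genes were higher without overlap in 8 of 10, 3 at an unadjusted p under 0.05, and summed to 16.5 and 24.8 against 63.1 and 129 CPM. Myh4, a fast myosin, was at 3.13 and 5.94 against 20.6 and 28.9 CPM. Most tested markers of luminal, endothelial, macrophage and skeletal muscle lists were therefore higher in both null libraries without passing the test. The macrophage list had sums of a like size in luminal cells. T-cell and NK-cell genes were at the share of all genes, and the part of these lists in the other differences was not tested.

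Matrix genes had lower values in null stroma by a modest factor. All 12 basement membrane genes tested were lower without overlap, beside 23.8% of all genes, 1 at an unadjusted p under 0.05, with a median log2 fold change of -0.59 and of -0.57 with null A6 alone. Nid1 (nidogen, a linker of the basement membrane) was at 2417 and 1918 against 1256 and 1354 CPM. Lama2, a laminin chain, was at 1251 and 757 against 546 and 586 CPM. Lamc1, the common gamma 1 chain, was at 1231 and 901 against 741 and 725 CPM. Hspg2, the proteoglycan perlecan, was at 543 and 419 against 370 and 260 CPM. The sum was 7420 and 5716 CPM in wild type and 4171 and 4235 CPM in null stroma.

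Of 22 matrix glycoproteins and proteoglycans 17 were lower without overlap and 0 higher, with 1 at an unadjusted p under 0.05 and a median of -0.66 (-0.56 with null A6 alone). Fn1, fibronectin, was at 5619 and 3519 against 2415 and 1747 CPM. Postn (periostin, a matricellular protein) was at 2821 and 2826 against 1744 and 1733 CPM, and it was the member with the unadjusted p under 0.05. Dcn was at 8599 and 6524 against 5531 and 5641 CPM. Sparc, a collagen-binding glycoprotein, was at 1810 and 2278 against 1698 and 1532 CPM. Each of these 4 was lower in both null libraries than in both wild-type ones.

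Of 14 fibrillar and associated collagens 10 were lower and 1 higher without overlap, beside 23.8% and 20% of all genes. Their median log2 fold change was -0.50, and -0.72 with null A6 alone. Col1a1 was at 1252 and 1573 CPM in wild type, 1218 CPM in null A5 and 783 CPM in null A6. Col3a1 was at 2203 and 2475 against 1583 and 1387 CPM, -0.66 ± 0.59 (SE) on the log2 scale. Col1a2 was at 1956 and 2173 against 1562 and 1362 CPM, and Col6a2 at 519 and 691 against 507 and 348 CPM. Col1a1 and Col3a1 chose or checked the null A5 library and are descriptions. Against the rest, Col8a1, a short-chain collagen singled out after its values were seen, was at 21.3 and 34.2 against 124 and 66.8 CPM.

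Genes that cut or cross-link matrix were lower in 12 of 16 and 10 of 15 by the sign of the log2 fold change. Of 16 proteases and inhibitors tested 10 were lower and 0 higher without overlap, beside 23.8% and 20% of all genes. At an unadjusted p under 0.05, 3 were lower, and the median was -0.64 with both null libraries and with null A6 alone. Mmp2, a gelatinase, was at 1157 and 565 against 458 and 364 CPM. Timp2, its inhibitor and activator, was at 2534 and 2238 against 1295 and 1367 CPM. Among 15 collagen-processing genes 8 were lower and 1 higher without overlap, with a median of -0.39 (-0.48 with null A6 alone). Lox, a collagen cross-linker, was at 240 and 169 against 158 and 110 CPM, whereas Serpinh1, a collagen chaperone, was at 71.7 and 102 against 94.5 and 132 CPM. Both were chosen after their values were seen.

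Fibroblast markers were lower in 9 of 16 without overlap and higher in 0, 1 at an unadjusted p under 0.05, with a median of -0.47 (-0.52 with null A6 alone) and a sum of 10205 and 7494 against 5783 and 6086 CPM. Gsn, the actin-severing gelsolin, was at 2902 and 1861 against 1486 and 1584 CPM. Dpt, dermatopontin, was at 2134 and 1398 against 1013 and 1083 CPM. Serpinf1, the secreted anti-angiogenic factor PEDF, overlapped at 1095 and 936 against 773 and 946 CPM. Wild-type A1 was the highest of the 4 libraries in each of these 3 genes. The complement list, whose main members fibroblasts make, was lower in 8 of 12 and higher in 2, with C3 at 3467 and 2305 against 1939 and 1866 CPM.

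**Figure D4:**
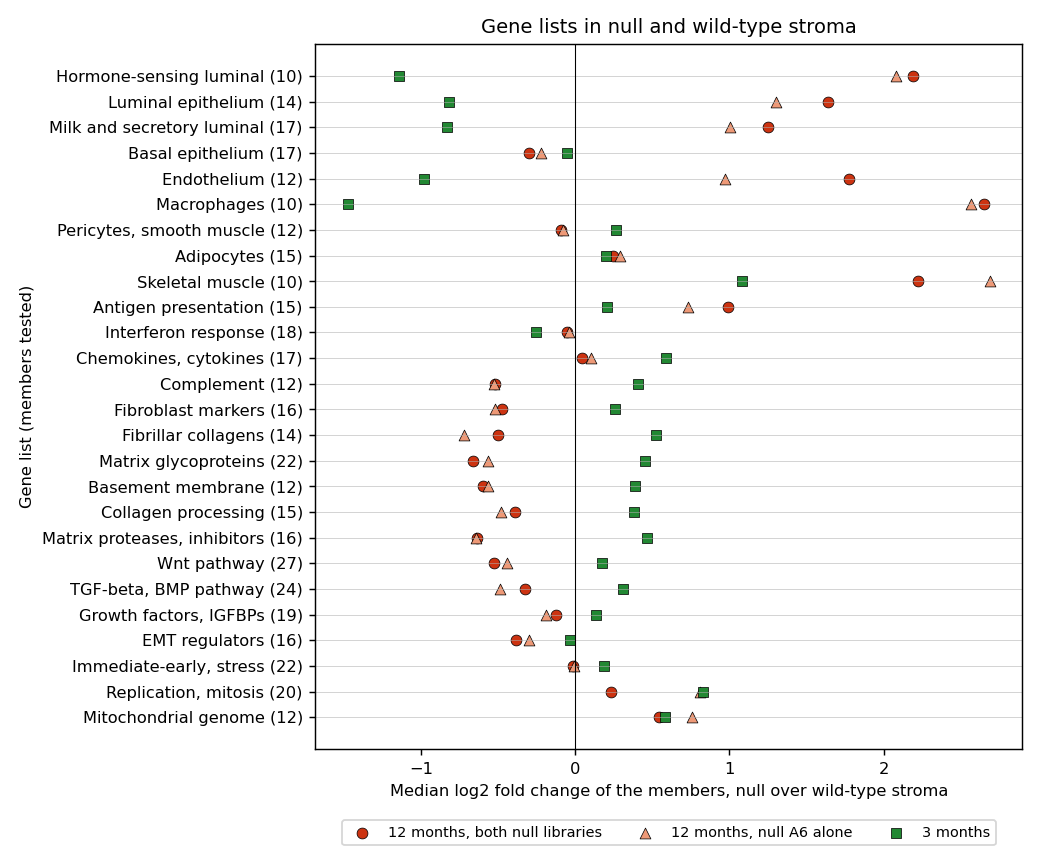
Median fitted log2 fold change (null over wild-type stroma) of the tested members of 26 gene lists, for both 12-month null libraries (circles), null A6 alone (triangles) and 3-month stroma (squares). Luminal, endothelial and macrophage lists lie to the right at 12 months and to the left at 3 months, and the matrix lists lie the other way round.

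Guidance and growth factor genes were among the 12 named genes that were lower in null stroma, and of these 12 only Snai2 had 0 or 1 count in the null libraries. Sema3c (a secreted semaphorin, chromosome 5 from 17574281 to 17730268) was at 392 and 354 CPM in wild type and 127 and 158 CPM in null stroma. Its log2 fold change was -1.39 ± 0.37 (SE), adjusted p = 0.317 with edgeR, and -1.23 with null A6 alone. DESeq2 and the fits to 4 and to 8 stromal libraries called it lower. Fgf2, a fibroblast growth factor, was at 146 and 142 against 50.7 and 59.9 CPM, a narrow spread within each genotype, and its log2 fold change was -1.38, or -1.26 with null A6 alone.

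Robo1, a receptor of Slit guidance cues, was at 118 and 91.5 against 45.6 and 61.8 CPM. Gpc6, a heparan sulfate glypican, was at 463 and 392 against 222 and 207 CPM. Nbl1, a secreted BMP antagonist, was at 124 and 85.7 against 51.7 and 41.4 CPM. Of the 12 named, 5 were highest in stroma among the 4 fractions of the null pools: Fgf2, Gpc6, Nbl1, Hnrnpll and, with its 1 count, Snai2. Sema3c and Robo1 were highest in the luminal-basal libraries of these pools, at 162.0 and 72.2 CPM on average, beside 142.5 and 53.7 CPM in stroma. Myh10 (a non-muscle myosin), Hnrnpll (an RNA-binding splicing regulator) and Tmco1 (an endoplasmic reticulum calcium channel) had log2 fold changes of -1.004, -0.93 and -1.07. Ddx51, E2f1 and Pop5, an RNA helicase, a cell-cycle transcription factor and a subunit of RNase P, had -1.54, -1.95 and -1.78, with E2f1 uneven in wild type at 36.1 and 13.7 CPM.

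Signalling lists leaned lower. Of 27 Wnt pathway genes 14 were lower and 3 higher without overlap, beside 23.8% and 20% of all genes. At an unadjusted p under 0.05, 3 were lower and 1 higher, and the median was -0.52 (-0.44 with null A6 alone). Sfrp2 and Sfrp4, secreted Wnt inhibitors, were at 248 and 219 against 177 and 137 CPM and at 177 and 235 against 109 and 109 CPM. Wnt4, which hormone-sensing luminal cells secrete, was the member with the smallest p and was higher, at 3.28 and 12.96 against 28.1 and 26.4 CPM. Of 24 genes of the TGF-beta and BMP pathways 11 were lower and 1 higher, none at an unadjusted p under 0.05, with a median of -0.32 (-0.48 with null A6 alone). Tgfbr3, a co-receptor, was at 909 and 745 against 691 and 618 CPM.

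Growth factors and IGF-binding proteins had 8 of 19 lower and 1 higher without overlap, beside 23.8% and 20% of all genes. Their median was only -0.13 (-0.19 with null A6 alone), beside -0.04 for all tested genes. Igfbp5 was at 3479 and 3643 against 2015 and 2002 CPM. Igf1 was at 318 and 300 against 280 and 245 CPM. Igf2 was the 1 higher member, at 16.5 and 27.0 against 62.1 and 53.5 CPM. Among 16 regulators and markers of epithelial-mesenchymal transition 10 were lower and 3 higher without overlap, Snai2 and Cdh1 among them. Snai1, the closest relative of Snai2, was at 18.2 and 14.9 against 12.7 and 9.28 CPM, -0.58 ± 0.75 (SE) on the log2 scale. Zeb2, Prrx1 and Vim were lower in both null libraries, Vim at 2304 and 1690 against 1464 and 1462 CPM.

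Lists with medians from -0.15 to 0.25 held genes of both directions. Over all genes 20% were higher and 23.8% lower without overlap. Interferon response genes had 3 of 18 higher and 4 lower without overlap and a median of -0.05. Immediate-early and stress genes, which mark handling of tissue, had 5 of 22 higher and 6 lower and a median of -0.01, with Egr1 at 16470 and 11361 against 11144 and 8738 CPM and Dusp1 at 4465 and 4329 against 4591 and 4377 CPM. Chemokines and cytokines had 6 of 17 higher and 4 lower. Pericyte and smooth muscle genes had 2 of 12 higher and 2 lower, and Acta2 ran from 89.4 to 347 CPM, lowest in wild-type A1 and highest in wild-type A2. Adipocyte genes had 5 of 15 higher (3 at an unadjusted p under 0.05, beside 4.13% of all genes) and 1 lower, with Fabp4, a lipid carrier that capillaries also make, at 71.4 and 109 against 317 and 140 CPM. Senescence and DNA damage genes had 3 of 18 higher and 5 lower, Cdkn1a (p21) being at 558 and 459 against 853 and 779 CPM.

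Proliferation and metabolism genes varied between pools. Of 20 replication and mitosis genes 3 were higher and 2 lower without overlap, and Mki67 was at 5.21, 24.3, 4.89 and 89.8 CPM in wild-type A1 and A2 and null A5 and A6. All 12 tested genes of the mitochondrial genome had positive log2 fold changes with a median of 0.54, and 3 had no overlap. Wild-type A1 was low, with a sum of 8481 CPM beside 18146 CPM in A2 and 17356 and 24116 CPM in the null libraries. Glycolysis genes had 11 of 16 higher and 2 lower without overlap, beside 20% and 23.8% of all genes. Their median was 0.45, with Gapdh at 230 and 305 against 539 and 327 CPM. Of 16 lipid and cholesterol genes 4 were higher and 2 lower, and of 11 hypoxia genes 3 and 2. Nerve, cytoskeleton and integrin lists had 4 of 9, 2 of 15 and 1 of 15 members higher and 1, 1 and 6 lower. Red cell and platelet genes were at or near 0 throughout.

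The age comparison asked whether stroma of 12-month null mice differed from wild type in another way than stroma of 3-month mice, for which other pools were used (F79 and F81 wild type, F82 and F84 null). No gene passed the test of the difference, 0 of 15917 or 0%, with a smallest adjusted p of 0.108, while 854 genes (5.37%) had an unadjusted p under 0.05. DESeq2 called 86, the model with pools as replicate block 9, and without wild-type A2 52 were called. Within the luminal list, 14 of 14 members had positive log2 fold changes at 12 months and negative ones at 3 months, beside 3680 of all 15917 tested genes. Of these 14 members, 13 had an unadjusted p under 0.05 for the difference. The list sums at 3 months were 423 and 696 CPM in wild type and 426 and 226 CPM in null stroma. Krt18, for one, was at 54.6 and 98.9 against 47.9 and 36.04 CPM at 3 months. Endothelial genes gave 8 of 12 at an unadjusted p under 0.05, each higher at 12 months.

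Matrix lists had the opposite signs at the ages. Basement membrane genes were lower in 12 of 12 at 12 months and had positive values in 12 of 12 at 3 months, 3 with an unadjusted p under 0.05 for the difference and a median difference of -0.95 on the log2 scale. Among all 15917 tested genes, 4257 were negative at 12 months and positive at 3 months. Col1a1 was at 3563 and 2159 CPM in wild type and 5868 and 7395 CPM in null stroma at 3 months. Its 12-month log2 fold change was -0.50 and its 3-month one 1.21, a description, since Col1a1 served to choose null A5. The luminal sum was lowest in the 3-month null library F84, and the sum of the fibrillar collagen list was highest there, whereas basement membrane genes summed to 12427 CPM in F82 and 11784 CPM in F84. The part of these lists in each other was not tested.

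**Figure D5:**
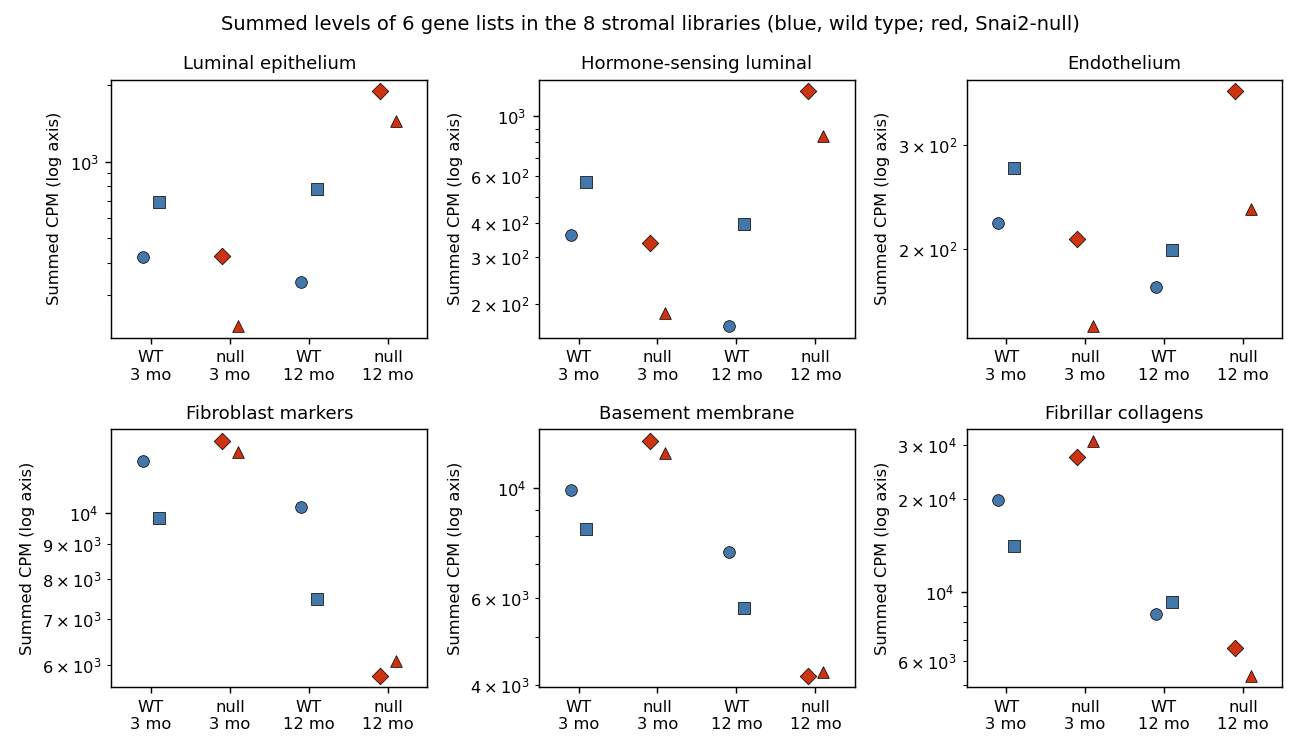
Summed CPM (log axis) of 6 gene lists in the 8 stromal libraries, 1 point a library, by genotype and age (circles and squares, wild-type F79 and F81 or A1 and A2; diamonds and triangles, null F82 and F84 or A5 and A6). The 12-month null libraries are the highest of the 8 in both luminal lists, at 1889 and 1447 CPM for luminal epithelium, and the lowest in the 3 fibroblast and matrix lists.

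Stroma was also set against luminal cells of the same 12-month pools. No gene passed the test of the difference in null effect, 0 of 15917 or 0%, the smallest adjusted p being 0.0830, and 703 genes (4.42%) had an unadjusted p under 0.05. DESeq2 called 35 genes and the fit to the 8 libraries of the comparison 70. The 6 genes with the smallest p, Antxr1, Postn, Prss23, Col14a1, Cpxm2 and Axl, were genes that fibroblasts express, lower in null stroma and higher in null luminal libraries. Postn, for one, was at 35.1 and 24.7 CPM in wild-type luminal cells and 128 and 91.1 CPM in null ones. Col14a1 was at 9.07 and 3.53 against 35.5 and 21.8 CPM there. Luminal list genes gave 10 of 14 at an unadjusted p under 0.05 in the other direction, with a median of -0.36 in luminal cells and 1.64 in stroma. The matrix glycoprotein list had a median of 0.79 in luminal cells, but its sums overlapped there, at 894 and 830 CPM in wild type and 1193 and 868 CPM in null mice. Fibrillar collagen sums there did not overlap, at 350 and 239 against 779 and 445 CPM. Picking genes by the smallest p of this difference favours opposite directions in stroma and luminal cells. Null stroma thus had higher values of luminal list genes than wild type, and null luminal cells had higher values of some fibroblast genes. The source of this pattern was not tested.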

How the data were processed

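Mammary cells were sorted from frozen, dissociated glands, and RNA was amplified from 5 ng with the NuGEN Ovation V2 kit, per the labels' protocols. Alignment used TopHat2 2.0.13 on GRCm38 and counting used HTSeq, per the submitters' processing notes. HTSeq's strand option, settings and version were not given in the sources used here, so reads of overlapping and antisense genes cannot be told apart. The deposited values are raw counts of 45706 genes in 26 libraries. Whole-transcript amplification makes counts grow with gene length, so levels were compared between libraries, not between genes.

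The members and gene lists were chosen with earlier results of these data known. In the fit, the A5 library labelled Luminal-Basal stood in the null stroma and the A5 library labelled Stromal in the null luminal-basal group. A filter, filterByExpr of edgeR (minimum count 10, minimum total 15), left 15917 genes, and TMM gave the scaling. edgeR's robust quasi-likelihood model, with 1 coefficient for each of 13 groups, was fitted to all libraries, which share 1 estimate of spread, and a contrast's genes were called where p, adjusted by Benjamini and Hochberg, was under 0.05. The script was tested on simulated data. CPM here divides the count by the library total times its TMM factor. SE here is the absolute log2 fold change divided by the square root of the quasi-likelihood F statistic, so it is derived from the test. Of 567 entries in 36 lists all matched, and list medians with genes at 0 counts in a whole group set to a floor of 3 counts over the group, or left out when at or under it, moved by at most 0.0722.

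Named genes were, for each direction, the 12 called genes of largest change, with 10 CPM or more in the higher group, without overlap, filled by smallest p since none was called, then up to 4 members of highest CPM per list and a fixed set of markers. Other names are given as chosen after their values were seen. Positions are from GENCODE vM21, which 45143 genes matched.

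Fractions of 1 pool come from the same mice. Their deviations from the means of their groups had r values from -0.02 to 0.38, but the genotypes share no pool, so the replicate block enters as deviations within genotype and age. Replicates were not duplicates: counts of the wild-type libraries differed by 31.9 times and those of the null libraries by 17.8 times the sampling noise (chi-square over its degrees of freedom). Alternatives were the labels as deposited, null A6 alone, RLE scaling, no low-count filter, fits to fewer libraries, DESeq2, the block, and each library left out. Software was matplotlib 3.10.9 on Python 3.11.15 for figures, and DESeq2 1.42.0, limma 3.58.1 and edgeR 4.0.16 on R 4.3.3 for tests.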

Additional observations from a re-analysis of the deposited data

Results flagged for a closer look

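For 11 of the named genes every null library of 12-month stroma lay on 1 side of the wild-type pools and every null library of 3-month stroma on the opposite side. The 12 named genes of each direction were picked for no overlap at 12 months, so that part was fixed for them. The share of all genes meeting both conditions was not computed. By the sign of the log2 fold change alone, 3680 of 15917 genes were positive at 12 and negative at 3 months, and 4257 the reverse. The differences between the null effects (12 months minus 3 months, log2 scale) were 1.72 for Zfp664, 3.05 for Slc7a2, 2.72 for Krt18, 4.46 for Krt7, 3.64 for Sele, 2.54 for Epcam and 1.91 for Pecam1. They were -1.51 for Nbl1, -1.13 for Snai1, -1.71 for Col1a1 and -1.39 for Col3a1. Col1a1 chose the null A5 library and Col3a1 was used to check it, so their values are descriptions. None of the other 9 passed edgeR's test of the difference between ages, in which 0 of 15917 genes were called, 854 had an unadjusted p under 0.05 and DESeq2 called 86. The ages were represented by separate pools, so age cannot be told apart from pool. Groups of 2 libraries are too small for a test of single outlying libraries.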

How the results depend on the processing

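With edgeR on the groups as used here, 0 genes were higher, 0 lower, 0 differed between ages and 0 between stroma and luminal cells. The labels as deposited, null A6 alone and RLE scaling also gave 0 for each. Without a low-count filter (27412 genes) the numbers were 251, 5, 240 and 145. Fits to only the libraries compared gave 70, 10, 9 and 70, and the 8 stromal libraries gave 25 higher and 7 lower. DESeq2 gave 72, 3, 86 and 35. Under a replicate block of pools they were 8, 1, 9 and 0. With each library left out in turn they ran from 0 to 34 higher, 0 to 0 lower, 0 to 52 between ages and 0 to 2 between fractions, with 34 and 52 without wild-type A2, 22 between ages without null F82, 1 without wild-type F79 and 2 between fractions without null A6 luminal cells. The cause was not tested. Among named genes, the log2 fold change of Krt14 was 3.53 and that of Pecam1 -0.10 with the labels as deposited. Krt14 was 0.46 with the replicate block, and with each library left out it ran from -1.19 to 4.06 (4.06 without wild-type A2). Rps2-ps10 was -0.48 with null A6 alone and ran from -0.49 (without null A5) to 2.05, and Csn2 from -1.43 (without null A6) to 5.07. Of the other values for named genes 344 kept direction and side of the threshold and 67 came to pass it. The fits to the 4 and to the 8 stromal libraries shared 29 called genes. Depth limits genes under about 1 CPM, where 1 count was worth 0.114 to 0.202 CPM in these 4 libraries.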

Other observations

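Beside Rpl34-ps1 and Rps2-ps10, the genes that separated the other null from the wild-type libraries were Gm10073, A530040E14Rik, Rps15a-ps8 and Gm7976, and these names follow from their values. Gm10073 was at 0.917 to 4.78 CPM in the 13 other null libraries, 4.89 to 21.0 CPM in wild type, 2.62 CPM in null A5 stroma and 6.46 CPM in null A6 stroma. Gm7976, a long noncoding RNA, was at 0.384 to 5.69 CPM in the other null libraries, 0 to 0.0599 CPM in wild type and 0 in null A6 stroma. Rps15a-ps8 was at 5.05 CPM in null A6 stroma, with 3.97 to 8.13 CPM in wild type.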
